A study of Homo sapiens with 7 samples.

Results

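The genes described here are 10 transcription factor genes of the AP-1 and immediate early class, FOS, FOSB, FOSL1, FOSL2, JUN, JUNB, JUND, EGR1, IER2 and MYC, taken by gene symbol from a table of 33694 genes. All 10 had enough counts to be tested, among 12404 tested genes. The study knocked down GLUT2, the glucose transporter that the SLC2A2 gene encodes, in HK-2, an immortalised cell line from human kidney proximal tubule that is labelled as proximal tubule cells. The siGLUT2 group held 3 libraries (replicates 2, 3 and 4) of HK-2 cells transfected with siRNA against GLUT2, labelled GLUT2-KD, and the scrambled group held 4 libraries (replicates 1 to 4) of HK-2 cells transfected with siRNAs of scrambled sequence, labelled WT. Both groups were grown in DMEM/F12 with 5% FBS, ITS, glutamine and antibiotics, received 50 nM siRNA with RNAimax, and were lysed 96 h after transfection. The siRNA sequences are not given in the labels, and all libraries come from 1 cell line.

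AP-1 is a dimer of a JUN family protein with a FOS, JUN, ATF or MAF family protein, joined through a leucine zipper. It binds the sequence TGAGTCA or TGACTCA, and its members differ in strength: FOS, FOSB and JUN activate strongly, FOSL1 and FOSL2 lack the strong activation domain of FOS, and JUND is present in resting cells and can restrain growth. Immediate early genes are transcribed within minutes of serum, growth factor or stress signals without new protein synthesis, through SRF and its ETS partners, CREB and MEF2 at their promoters, and most of their transcripts decay quickly. In the injured proximal tubule, EGR1 and AP-1 genes are among the first to be induced.

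Of the 10 genes, FOSL1, FOSL2, JUN and MYC were higher in siGLUT2 cells, JUND and EGR1 were lower, and FOS, FOSB, JUNB and IER2 did not pass the test (edgeR's quasi-likelihood test over all 12404 genes, Benjamini-Hochberg adjusted p below 0.05). That is 6 of 10 called, in a comparison that called 28.3% of all tested genes, with 13.9% higher and 14.4% lower. Levels are given as CPM, counts scaled to a common library size by TMM. In CPM, siGLUT2 and scrambled libraries were fully separated for 7 of the 10, against 35.1% of all tested genes. Over all genes tested, the median log2 fold change came to -0.0029. Fold changes are siGLUT2 over scrambled throughout. In bulk RNA, fewer cells that express a gene and less of its RNA per cell cannot be told apart.

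The promoters of EGR1, JUN, FOSL2 and JUND are shown because these genes were called and their windows held a motif of the factors that drive immediate early genes or of AP-1 itself. Each window runs from 250 bases before to 50 bases after the RefSeq gene start (GRCh38.p14), 5′ to 3′ on the gene's strand, with the motif in capitals. The table matched 8 of the 10 genes, without FOSL1 and MYC.
EGR1, chr5:138465229-138465528, plus strand: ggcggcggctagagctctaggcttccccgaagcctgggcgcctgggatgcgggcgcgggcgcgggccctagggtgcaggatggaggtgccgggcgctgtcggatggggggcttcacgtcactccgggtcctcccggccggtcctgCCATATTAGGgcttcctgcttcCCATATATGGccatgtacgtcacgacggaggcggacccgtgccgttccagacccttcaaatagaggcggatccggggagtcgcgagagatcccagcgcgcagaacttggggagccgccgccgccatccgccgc
JUN, chr1:58783998-58784297, minus strand: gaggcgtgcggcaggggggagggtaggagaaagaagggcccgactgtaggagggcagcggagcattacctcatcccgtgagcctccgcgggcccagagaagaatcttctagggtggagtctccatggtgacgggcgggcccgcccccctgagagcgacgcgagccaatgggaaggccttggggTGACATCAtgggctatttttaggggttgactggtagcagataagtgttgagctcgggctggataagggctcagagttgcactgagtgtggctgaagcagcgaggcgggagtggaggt
FOSL2, chr2:28392608-28392907, plus strand: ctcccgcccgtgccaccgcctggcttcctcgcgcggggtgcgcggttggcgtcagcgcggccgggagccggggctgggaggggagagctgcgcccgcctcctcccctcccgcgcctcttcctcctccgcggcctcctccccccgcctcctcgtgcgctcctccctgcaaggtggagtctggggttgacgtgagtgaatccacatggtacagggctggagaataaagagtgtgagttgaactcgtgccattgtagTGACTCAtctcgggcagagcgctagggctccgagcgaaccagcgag
JUND, chr19:18281573-18281872, minus strand: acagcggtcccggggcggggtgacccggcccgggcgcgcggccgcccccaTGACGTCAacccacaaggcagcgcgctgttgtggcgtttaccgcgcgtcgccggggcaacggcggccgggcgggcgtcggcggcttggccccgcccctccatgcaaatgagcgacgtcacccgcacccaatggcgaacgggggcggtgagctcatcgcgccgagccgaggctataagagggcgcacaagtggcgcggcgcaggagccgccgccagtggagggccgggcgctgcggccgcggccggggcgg

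The capitals in EGR1 mark a pair of CArG boxes, the motif that SRF binds, starting 105 and 83 bases before the start, and EGR1 was the sole gene among the 8 matched with a CArG box in this window. In JUN they mark TGACATCA, an AP-1-like element 67 bases before the start, through which JUN and ATF2 are known to regulate JUN. In FOSL2 they mark the AP-1 site TGACTCA at base 5 after the start, and in JUND the cyclic AMP response element TGACGTCA 200 bases before the start. Both strands were searched for exact matches to 4 motifs, and sites outside the window or in variant forms were not searched. Motifs of MEF2 and of the ETS partners of SRF were not searched either, so the windows may hold them in lower case. Among 27305 RefSeq promoter windows of the same length, 1.29% held a CArG box, 4.92% TGAGTCA or TGACTCA, 1.98% TGACGTCA and 2.71% TGACATCA. The windows of FOS, FOSB, JUNB and IER2 held no exact match to the 4 motifs, which does not show that these genes lack such sites. The called genes with a window thus included 2 that were higher and 2 that were lower, each with a different motif of the 4 searched. A match is a description of letters and no evidence of binding in these cells.

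As a check of the labels, SLC2A2 had counts of 0, 0 and 0 in the siGLUT2 libraries and of 13, 13, 7 and 17 in the scrambled libraries, and 3 counts over the pooled siGLUT2 libraries would be 0.156 CPM. Total counts were 5881366 to 6914302 in siGLUT2 libraries and 5654957 to 8455963 in scrambled libraries (exact two-sided permutation p = 0.257). Fewer genes were detected in siGLUT2 libraries (13433 to 13891) than in scrambled libraries (14844 to 15036), and mitochondrially encoded genes took more of the counts (7.04% to 7.56% in siGLUT2, 4.91% to 5.53% in scrambled). The 50 most counted genes took 17.7% to 18.4% of the counts in siGLUT2 libraries and 16.2% to 16.9% in scrambled libraries. Each of these 3 differences had an exact permutation p of 0.0286, the smallest that 35 assignments allow, or 0.0381 adjusted over 4 library measures. Replicate libraries differed more among siGLUT2 (chi-square per degree of freedom 9.76 to 16.6) than among scrambled (4.70 to 7.85), so no library was a copy of another. Of 12 proximal tubule markers, SLC5A2, PAX8 and GGT1 reached the tested set, GGT1 was higher and the other 2 did not pass the test, and LRP2, SLC22A6 and SLC22A8 were at 0 in every library. The epithelial keratins KRT7, KRT8, KRT18 and KRT19 were lower (4 of 6 epithelial markers, summed 635 to 767 CPM in siGLUT2 and 1128 to 1240 CPM in scrambled). Fibroblast and pericyte markers summed to 47.1 to 52.0 CPM in siGLUT2 and 17.7 to 24.0 CPM in scrambled, with LUM and COL1A1 higher among 5 tested and COL3A1 at 0. Leukocyte markers summed to 26.8 to 28.96 CPM in siGLUT2 and 14.2 to 18.8 CPM in scrambled, with CD68 the sole tested gene and higher and PTPRC, CD3E, LYZ and NKG7 among those at 0. Endothelial markers summed to 0 to 2.16 CPM in siGLUT2 and 0.959 to 2.29 CPM in scrambled. The part of these library and marker differences in the results below was not tested.

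FOSL1 and FOSL2, the FOS family members without the strong activation domain, both rose in siGLUT2 cells. FOSL2 (chromosome 2, 28392448 to 28417312, plus strand, GRCh38) had 173, 165 and 182 CPM in siGLUT2 libraries and 100.3, 92.5, 102.7 and 109.7 CPM in scrambled libraries. Every siGLUT2 library lay above every scrambled library, and the replicates of each group were close together. Its mean was 173 ± 8.58 CPM in siGLUT2 and 101 ± 7.11 CPM in scrambled (SD, n = 3 and 4), a log2 fold change of 0.78 ± 0.10 (SE) or 1.71-fold (edgeR adjusted p = 5.5e-06). FOSL1 (chromosome 11, 65892049 to 65900573, minus strand) had 56.1, 57.5 and 72.9 CPM in siGLUT2 and 46.7, 38.7, 33.8 and 24.0 CPM in scrambled. The groups did not overlap, but the scrambled libraries were spread widely. The log2 fold change was 0.79 ± 0.19 or 1.73-fold (edgeR adjusted p = 0.0025).

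FOS, the inducible partner of JUN after which the family is named, was counted at a low level in both groups. FOS (chromosome 14, 75278774 to 75282230, plus strand) had 7, 23 and 3 counts in siGLUT2 libraries and 31, 30, 36 and 28 counts in scrambled libraries. In CPM that was 1.19, 3.31 and 0.469 in siGLUT2 and 4.34, 3.60, 4.55 and 4.94 in scrambled, with every siGLUT2 library below every scrambled one. The siGLUT2 libraries varied among themselves by a coefficient of variation of 89.1%, against 12.9% in scrambled libraries. The log2 fold change was -1.37 ± 0.67 with a 95% interval of -2.76 to 0.026. The edgeR adjusted p was 0.138, so FOS was not called. An exact two-sided permutation test on its CPM gave an unadjusted p of 0.0286, the smallest it can. That value restates the lack of overlap, which 35.1% of all tested genes showed, and adds no support of its own. Without siGLUT2 replicate 3 the log2 fold change was -2.38 and the adjusted p was 0.0253 (edgeR). Pooled counts, with exact Poisson intervals that cover counting error alone, came to 1.18 to 2.41 CPM in siGLUT2 and 3.58 to 5.13 CPM in scrambled.

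FOSB, an activating FOS family member induced in parallel with FOS, had 17, 27 and 74 counts in siGLUT2 libraries and 36, 17, 24 and 35 counts in scrambled libraries. In CPM these were 2.90, 3.89 and 11.6 in siGLUT2 and 5.05, 2.04, 3.04 and 6.17 in scrambled. The library of siGLUT2 replicate 4 stood above all others, and the remaining libraries of both groups overlapped. The log2 fold change was 0.60 ± 0.53 (95% interval -0.50 to 1.70, edgeR adjusted p = 0.437), and without siGLUT2 replicate 4 it was -0.25. FOSB (chromosome 19, 45467995 to 45475179, plus strand) overlaps ERCC1 on the opposite strand, which had 1194 counts over the 7 libraries, and the strand setting of the counting is not given in the sources used here.

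**Figure D1:**
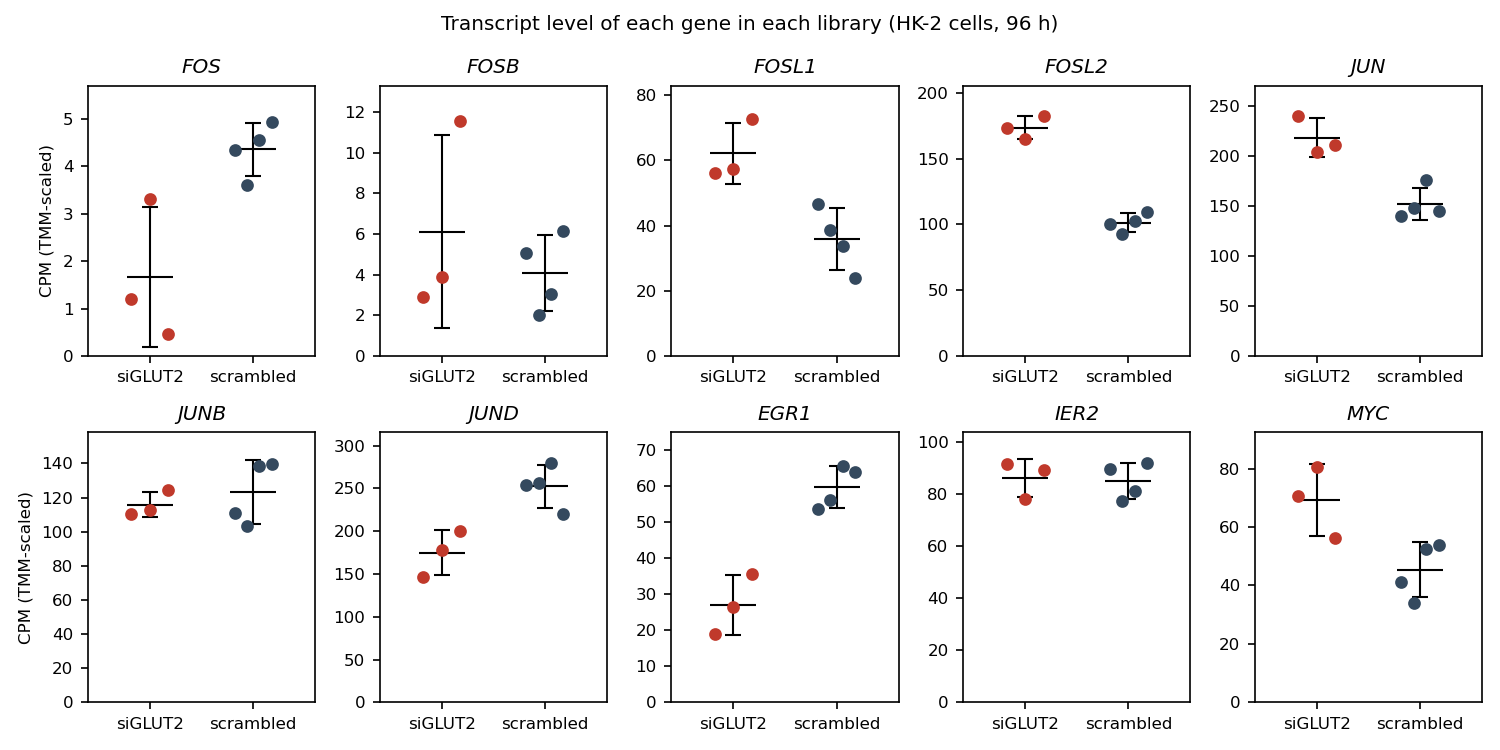
TMM-scaled CPM of the 10 genes, a panel each, in 3 siGLUT2 libraries (red) and 4 scrambled libraries (dark blue); points are libraries, and the bar and whiskers are the mean and SD. FOSL1, FOSL2, JUN and MYC lie higher in siGLUT2, FOS, JUND and EGR1 lie lower without overlap, and FOSB, JUNB and IER2 overlap.

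Within the JUN family, JUN and JUND moved in opposite directions and JUNB did not pass the test. JUN, the main activating partner of the FOS proteins (chromosome 1, 58780788 to 58784327, minus strand), had 240.3, 204 and 211 CPM in siGLUT2 and 140, 148, 176 and 145 CPM in scrambled libraries. The lowest siGLUT2 library lay above the highest scrambled one. Its mean was 218 ± 19.4 CPM in siGLUT2 and 152 ± 16.1 CPM in scrambled, 1.44-fold or a log2 fold change of 0.52 ± 0.10 (edgeR adjusted p = 0.00047). JUND, the family member of resting cells (chromosome 19, 18279760 to 18281622, minus strand), had 147, 178 and 199.8 CPM in siGLUT2 and 254, 256, 280.0 and 219.6 CPM in scrambled libraries. Here every siGLUT2 library lay below every scrambled one, with siGLUT2 replicate 4 and scrambled replicate 4 nearest to each other. The log2 fold change was -0.53 ± 0.11, a fold of 0.693 (edgeR adjusted p = 0.00079).

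JUNB, a weaker activator that can oppose JUN (chromosome 19, 12791496 to 12793315, plus strand), had 110.5, 113 and 124 CPM in siGLUT2 and 111, 104, 139 and 140 CPM in scrambled libraries. The siGLUT2 libraries lay inside the range of the scrambled ones. The log2 fold change was -0.09 ± 0.12, with a 95% interval of -0.34 to 0.16 (edgeR adjusted p = 0.639). JUNB overlaps HOOK2 on the opposite strand, which had 552 counts over the 7 libraries.

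Ratios of raw counts within a library do not depend on library scaling. The ratios were picked after the values were seen and are given with no test, and they show shifts between groups rather than relative abundance. JUN to JUND was 1.64, 1.14 and 1.06 in siGLUT2 libraries and 0.550, 0.576, 0.627 and 0.660 in scrambled libraries. JUN counts thus exceeded JUND counts in every siGLUT2 library and in no scrambled library. FOSL2 to JUND was 1.18, 0.924 and 0.911 in siGLUT2 and 0.395, 0.361, 0.367 and 0.4996 in scrambled, and JUN to JUNB was 2.17, 1.81 and 1.70 in siGLUT2 and 1.26, 1.42, 1.27 and 1.04 in scrambled. Both had no overlap between groups. FOSL1 to FOSL2 averaged 0.358 ± 0.039 in siGLUT2 and 0.358 ± 0.109 in scrambled (SD, n = 3 and 4), and the groups overlapped. JUNB to JUND (0.669 ± 0.0728 in siGLUT2, 0.493 ± 0.102 in scrambled) and FOSL2 to JUN (0.797 ± 0.0710 in siGLUT2, 0.672 ± 0.0796 in scrambled) overlapped as well.

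**Figure D2:**
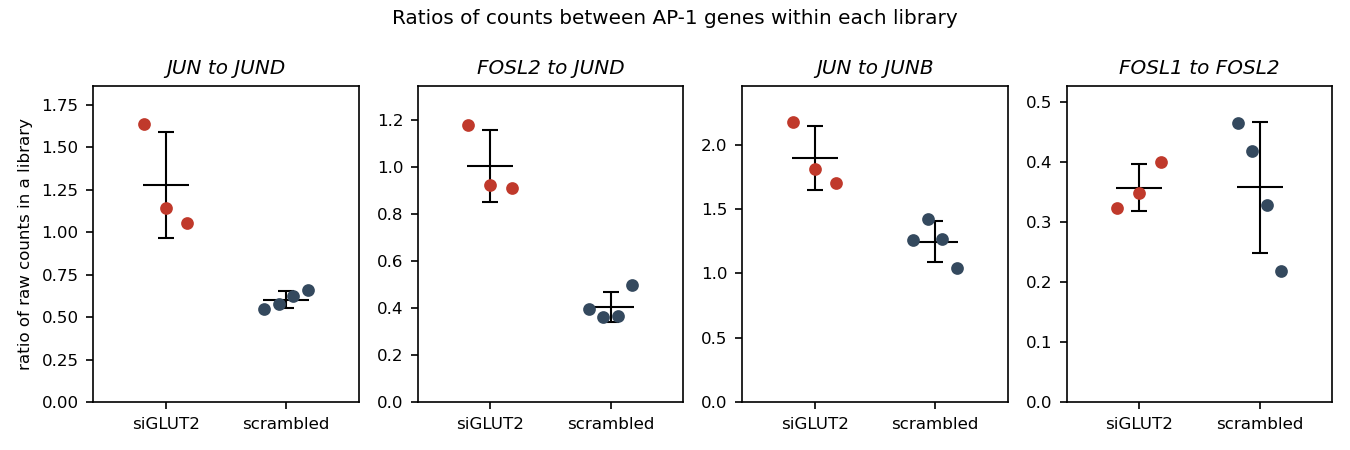
Ratio of raw counts of 2 AP-1 genes within each of 3 siGLUT2 libraries (red) and 4 scrambled libraries (dark blue); bar and whiskers are the mean and SD. JUN to JUND, FOSL2 to JUND and JUN to JUNB are higher in every siGLUT2 library, while FOSL1 to FOSL2 overlaps.

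EGR1 had the larger fall of the 2 genes called lower. EGR1, a zinc finger factor induced through SRF and the ERK cascade (chromosome 5, 138465490 to 138469315, plus strand), had 18.9, 26.5 and 35.7 CPM in siGLUT2 and 53.5, 56.1, 65.5 and 63.8 CPM in scrambled libraries. All siGLUT2 libraries were well below the scrambled ones. The mean was 27.0 ± 8.37 CPM in siGLUT2 and 59.8 ± 5.83 CPM in scrambled, a log2 fold change of -1.14 ± 0.19 or a fold of 0.453 (edgeR adjusted p = 7.76e-05). IER2, a small immediate early nuclear protein (chromosome 19, 13150415 to 13154908, plus strand), had 91.6, 78.1 and 89.3 CPM in siGLUT2 and 89.8, 77.4, 81.3 and 91.9 CPM in scrambled libraries. The groups covered the same range, and the log2 fold change was 0.02 ± 0.12 with a 95% interval of -0.23 to 0.27 (edgeR adjusted p = 0.92).

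MYC, a growth-promoting factor that dimerises with MAX and is itself an early target of mitogens (chromosome 8, 127735434 to 127741434, plus strand), had 70.8, 80.7 and 56.1 CPM in siGLUT2 and 41.2, 34.1, 52.5 and 54.0 CPM in scrambled libraries. The groups did not overlap, but siGLUT2 replicate 4 lay just above scrambled replicates 3 and 4. The mean was 69.2 ± 12.4 CPM in siGLUT2 and 45.4 ± 9.49 CPM in scrambled, a log2 fold change of 0.61 ± 0.17 or 1.53-fold (edgeR adjusted p = 0.0093). The call was lost without siGLUT2 replicate 3 (log2 fold change 0.48, edgeR adjusted p = 0.0692).

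**Figure D3:**
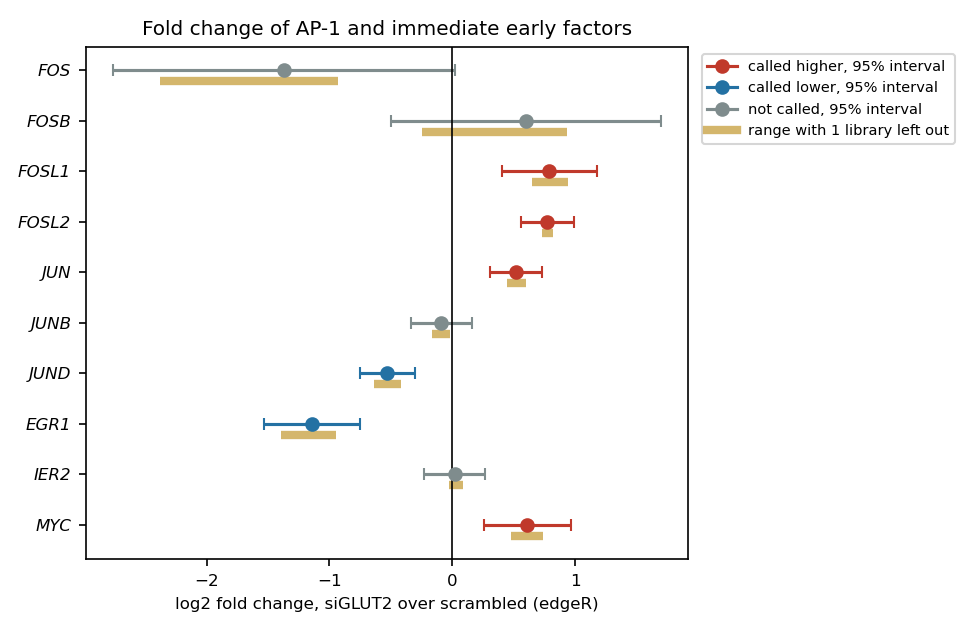
Log2 fold change of siGLUT2 over scrambled (edgeR) with its 95% interval for each of the 10 genes; the ochre bar is the range with 1 library left out. FOSL1, FOSL2, JUN and MYC lie above 0, JUND and EGR1 below 0, and the intervals of FOS, FOSB, JUNB and IER2 span 0, with FOS and FOSB the widest.

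In a set of 10362 genes averaging 5 CPM or more, those with the pattern over the 7 libraries most like FOSL2 were SH3KBP1, NPC1 and TAF1D. Likeness was the root mean square difference of log2 CPM after each gene was centred on its own mean, and it was 0.0361, 0.0494 and 0.0648 for these genes. SH3KBP1, an endocytic adaptor, averaged 314 CPM in siGLUT2 and 179 CPM in scrambled. NPC1, the lysosomal cholesterol transporter, averaged 69.2 CPM in siGLUT2 and 42.1 CPM in scrambled. TAF1D, a subunit of the RNA polymerase I factor SL1, averaged 129.7 CPM in siGLUT2 and 82.1 CPM in scrambled. For EGR1, the nearest were TTPAL (0.0756, 16.2 CPM in siGLUT2 and 33.4 CPM in scrambled), the Golgi SNARE gene GOSR1 (0.0821, 26.4 CPM in siGLUT2 and 63.4 CPM in scrambled) and AP1M2, an epithelial subunit of the clathrin adaptor complex whose name does not refer to the AP-1 factor (0.0901, 40.8 CPM in siGLUT2 and 82.5 CPM in scrambled). These are descriptions over 7 libraries, and the measure includes the difference between siGLUT2 and scrambled libraries. The genes nearest FOSL2 had log2 fold changes of 0.81, 0.72 and 0.66, beside 0.78 for FOSL2. Those nearest EGR1 had -1.04, -1.26 and -1.01, beside -1.14 for EGR1.

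A set of 8 lists of genes around these factors were read from the same fit. Their counts stand beside the 28.3% of all genes called, with 13.9% higher and 14.4% lower. The AP-1 dimer partners had 4 of 11 tested genes higher and 0 lower, with a median log2 fold change of 0.29. These were CREB5 and the MAF family genes MAF, MAFF and MAFG, which form leucine zipper dimers. MAF averaged 59.7 ± 5.17 CPM in siGLUT2 and 27.9 ± 4.58 CPM in scrambled (SD), a log2 fold change of 1.09 ± 0.17 (edgeR adjusted p = 3.05e-05). MAFG averaged 115 ± 7.33 CPM in siGLUT2 and 69.1 ± 8.68 CPM in scrambled, MAFF 39.4 ± 8.73 CPM in siGLUT2 and 25.6 ± 4.15 CPM in scrambled, and CREB5 111 ± 11.4 CPM in siGLUT2 and 79.7 ± 2.63 CPM in scrambled. Of these 4, MAFF had the largest adjusted p (edgeR, 0.0179). The count of higher genes was 3 without scrambled replicate 2, 3 or 4 or without siGLUT2 replicate 3. Without siGLUT2 replicate 4, 1 gene of the list was lower.

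Other immediate early genes had 9 of 26 tested genes higher, 3 lower and 14 neither (median log2 fold change 0.45). PHLDA1, a pleckstrin homology domain protein tied to cell survival, averaged 302 ± 14.2 CPM in siGLUT2 and 113 ± 8.81 CPM in scrambled (log2 fold change 1.41 ± 0.09, edgeR adjusted p = 3.33e-10). CCN1, a secreted matricellular protein, averaged 1017 ± 116 CPM in siGLUT2 and 589 ± 74.5 CPM in scrambled, and the pseudokinase gene TRIB1 119 ± 7.48 CPM in siGLUT2 and 58.9 ± 8.73 CPM in scrambled. The lower genes were PLK2, HES1 and IER5, and the count of lower genes was 1 without scrambled replicate 3 or without siGLUT2 replicate 3. PLK2, a polo-like kinase, averaged 278 ± 23.7 CPM in siGLUT2 and 430 ± 20.7 CPM in scrambled (log2 fold change -0.63 ± 0.09, edgeR adjusted p = 9.4e-06).

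The transcription factors that act at immediate early promoters had 3 of 11 genes higher and 0 lower (median log2 fold change 0.14). The share called, 27.3%, was near the 28.3% of all tested genes. SRF, the factor whose motif is the CArG box, averaged 234 ± 42.3 CPM in siGLUT2 and 130 ± 10.5 CPM in scrambled (log2 fold change 0.85 ± 0.11, edgeR adjusted p = 5.97e-06). ELK3, an ETS partner of SRF that can repress, averaged 116 ± 5.83 CPM in siGLUT2 and 62.2 ± 7.23 CPM in scrambled, and MEF2D 36.0 ± 6.13 CPM in siGLUT2 and 15.6 ± 3.23 CPM in scrambled. SRF transcripts were thus higher and EGR1 transcripts lower in the same libraries, and a link between them was not tested.

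The MAP kinase cascades that signal to these promoters had 5 of 24 genes higher and 5 lower (median log2 fold change 0.0061). MAP2K3, an activator of p38, averaged 187 ± 33.8 CPM in siGLUT2 and 94.7 ± 7.63 CPM in scrambled, and MAPK8, a JUN N-terminal kinase, 50.5 ± 10.9 CPM in siGLUT2 and 26.9 ± 2.40 CPM in scrambled. NRAS, MAPK7 and MAPK9 were the other higher genes. On the ERK branch, MAP2K2 averaged 82.6 ± 11.2 CPM in siGLUT2 and 157 ± 9.88 CPM in scrambled (log2 fold change -0.93 ± 0.11, edgeR adjusted p = 2.37e-06), and MAPK3 11.4 ± 2.21 CPM in siGLUT2 and 28.4 ± 5.35 CPM in scrambled (log2 fold change -1.32 ± 0.24, edgeR adjusted p = 0.00019). HRAS, MAP2K7 and RPS6KA1 were also lower, and the count of lower genes was 3 without scrambled replicate 3. Transcript levels say nothing of kinase activity.

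Among corepressors and factors of transcript and protein turnover, 2 of 13 genes were higher and 3 lower (median log2 fold change 0.08). FBXW7, which directs JUN and MYC proteins to degradation, averaged 90.8 ± 7.46 CPM in siGLUT2 and 56.7 ± 6.86 CPM in scrambled, and COP1, a ubiquitin ligase for JUN, was the other higher gene. The 3 lower genes, KHSRP, ELAVL1 and HNRNPD, encode proteins that bind AU-rich elements, as do ZFP36L1 (log2 fold change 0.15, edgeR adjusted p = 0.168) and ZFP36L2 (0.08, edgeR adjusted p = 0.777), which did not pass the test. KHSRP, a decay factor, averaged 732 ± 54.9 CPM in siGLUT2 and 1155 ± 89.7 CPM in scrambled (log2 fold change -0.66 ± 0.08, edgeR adjusted p = 2.64e-06). ELAVL1, a stabilising factor, averaged 79.1 ± 5.13 CPM in siGLUT2 and 133 ± 7.54 CPM in scrambled, and HNRNPD 556 ± 37.4 CPM in siGLUT2 and 694 ± 6.37 CPM in scrambled.

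AU-rich elements in the 3' untranslated regions of the 10 genes were counted on the longest annotated region (GENCODE 29). ATTTA occurred in 9 of the 10 and in 74.9% of 11609 tested genes with a region of at least 50 bases, and the stricter TTATTTATT occurred in FOS and FOSL2 and in 9.63% of those genes. The words GACCTTA and ACCTTAA, which an earlier scan of these same fold changes picked out and which therefore support nothing here, occurred in FOS and FOSB and in 15.3% of those genes. The region was 806 bases long in FOS, 2167 in FOSB and 4864 in FOSL2, against a median of 1422 over those genes. These shares were not matched for length, and a longer region has more room for a word. The sites are shown in 30 bases with the word in capitals, written as DNA on the plus strand of GRCh38.
FOS, AU-rich element, chr14:75282060-75282089: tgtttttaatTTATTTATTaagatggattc
FOSL2, AU-rich element, chr2:28416355-28416384: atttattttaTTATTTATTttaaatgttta
FOS, GACCTTA, chr14:75281526-75281555: acctagggagGACCTTAtctgtgcgtgaaa
FOSB, GACCTTA, chr19:45473514-45473543: ctgcactcccGACCTTAgcttattgatccc
Of the carriers of TTATTTATT, FOSL2 was called higher, and FOS had a negative fold change that was not called. Whether they share a direction therefore cannot be told. The carriers of GACCTTA, FOS and FOSB, were both not called.

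Known AP-1 target genes, a list chosen like the others with earlier results of these data known, had 16 of 22 tested genes higher, 2 lower and 4 neither (median log2 fold change 1.06). PLAUR, the urokinase receptor, averaged 117 ± 5.95 CPM in siGLUT2 and 35.9 ± 0.92 CPM in scrambled (log2 fold change 1.70 ± 0.12, edgeR adjusted p = 1.19e-09). CD44, the hyaluronan receptor, averaged 231 ± 7.80 CPM in siGLUT2 and 107 ± 12.6 CPM in scrambled, and the chromatin protein gene HMGA2 1034 ± 47.6 CPM in siGLUT2 and 585 ± 36.6 CPM in scrambled. Other higher genes included the matrix proteases MMP1, MMP9 and MMP13, the urokinase PLAU, CCND1, IL6, IL11, ITGA2, HMGA1, VEGFA and TNC. The lower genes were TIMP1, an inhibitor of matrix proteases, and F3, tissue factor. AP-1 is among several regulators of these genes, and the marker lists of other cell types given above moved in the same libraries.

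In the MYC and MAX network, 2 of 12 tested genes were higher and 2 lower (33.3% called, median log2 fold change -0.078). MAX, the obligate partner of MYC, averaged 100.4 ± 8.26 CPM in siGLUT2 and 57.0 ± 4.84 CPM in scrambled (log2 fold change 0.82 ± 0.12, edgeR adjusted p = 3.23e-05). Of the MAX-binding repressors that oppose MYC, MXD1 averaged 13.0 ± 6.39 CPM in siGLUT2 and 3.95 ± 2.01 CPM in scrambled, while MXD3 averaged 2.99 ± 1.46 CPM in siGLUT2 and 15.6 ± 2.76 CPM in scrambled, and MXI1 38.9 ± 6.18 CPM in siGLUT2 and 62.0 ± 6.65 CPM in scrambled. Without siGLUT2 replicate 4, 1 gene of the network was higher. Of known MYC target genes, 5 of 34 tested were higher and 4 lower (median log2 fold change -0.041). The share called, 26.5%, was near the 28.3% of all tested genes. CDK4, a cell cycle kinase, averaged 85.9 ± 22.3 CPM in siGLUT2 and 266 ± 13.3 CPM in scrambled (log2 fold change -1.63 ± 0.13, edgeR adjusted p = 5.9e-09), and CAD, the first enzyme of pyrimidine synthesis, 29.99 ± 3.15 CPM in siGLUT2 and 94.5 ± 5.61 CPM in scrambled. TFRC, the transferrin receptor, averaged 190 ± 26.3 CPM in siGLUT2 and 87.3 ± 9.91 CPM in scrambled, and ODC1, the first enzyme of polyamine synthesis, 185 ± 30.1 CPM in siGLUT2 and 101 ± 14.3 CPM in scrambled. NOP2, RRS1 and EIF4E were also higher, and GNL3 and RRP12 also lower. The count of higher genes was 3 without scrambled replicate 2 or without scrambled replicate 3, and the count of lower genes was 7 without siGLUT2 replicate 2.

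**Figure D4:**
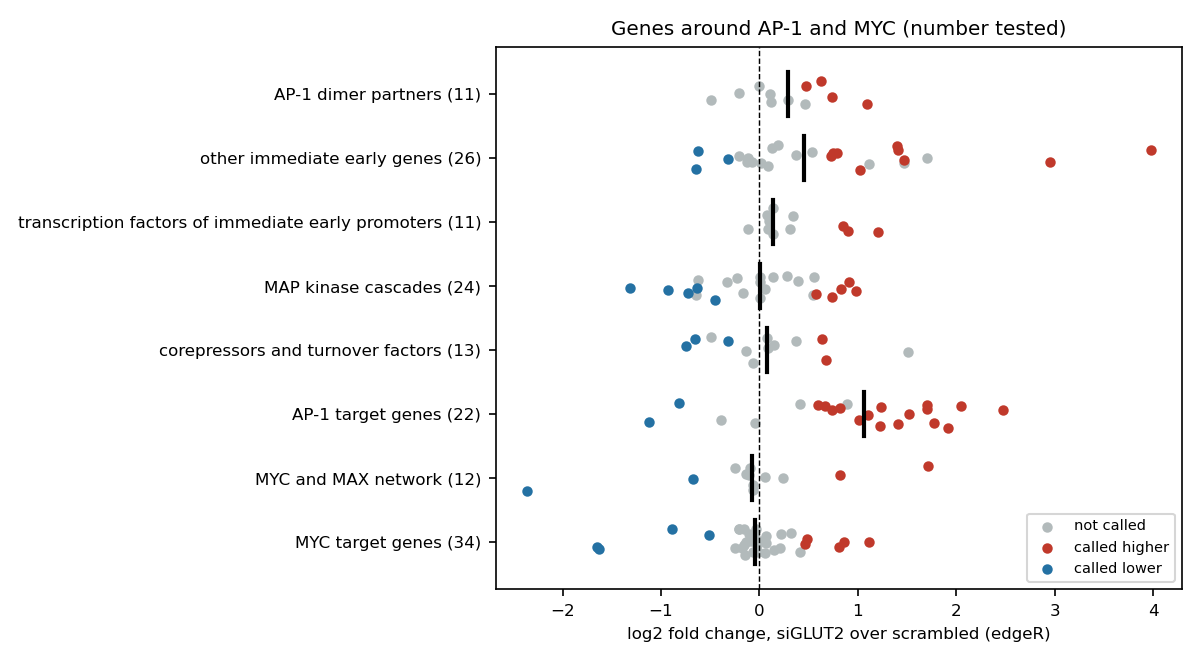
Log2 fold change of siGLUT2 over scrambled (edgeR) for each tested gene of 8 lists, with called genes in red (higher) and blue (lower) and the others in grey; the black tick is the list's median and the dashed line the median of all tested genes. The AP-1 targets have a median of 1.06 with 16 of 22 genes higher, and the MYC targets have a median of -0.041. Of all tested genes, 13.9% were called higher, and all lists were chosen with earlier results of these data known.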

How the data were processed

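Per the labels' protocols, 3' digital mRNA-seq libraries were made from 125 ng of HK-2 RNA and read single-end for 100 cycles. The authors deposited raw counts per Ensembl gene for 7 libraries; per the submitters' processing notes, the tools include STAR, HTSeq and edgeR and the build is hg38, with no version or role. No source used here gives the annotation release, the strand setting or whether molecular identifiers were used.

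From the deposited counts, siGLUT2 was compared with scrambled in edgeR 4.0.16 (R 4.3.3): low counts were removed by filterByExpr with a minimum count of 10 and a minimum total of 15, followed by TMM scaling, robust glmQLFit and glmQLFTest, Benjamini-Hochberg adjustment over 12404 genes, threshold 0.05. SE is the log2 fold change divided by the square root of F, and 95% intervals use the t distribution with edgeR's degrees of freedom. All 7 value columns were matched, and 0 were left out. The labels call the libraries biological replicates, all of 1 line, and p-values cover no more than the spread among them. Permutation tests were two-sided and exact. Poisson intervals cover counting error alone.

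The 10 genes and all lists were chosen with earlier results of these data known. The naming rule took the 10 genes, SLC2A2, up to 4 genes per list with the smallest adjusted p, and the 3 genes most like FOSL2 and EGR1. A few genes in the lists enter the counts and are not reported here. Genes named in addition, to complete a count, were chosen after their values were seen, as were the ratios. Positions and 3' untranslated regions came from GENCODE 29, promoters from RefSeq (GRCh38.p14). The main edgeR fit was tested on simulated counts with far fewer changed genes than these data called, and the other steps were not tested this way. Alternatives included DESeq2 1.42.0, limma-voom (limma 3.58.1), other scalings and filters, thinning, a replicate block and leaving out each library.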

Additional observations from a re-analysis of the deposited data

How the results depend on the processing

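Over 19 alternatives, the same 4 genes were called higher and the same 2 lower, except that leaving out siGLUT2 replicate 3 ended the call of MYC (log2 fold change 0.48, edgeR adjusted p = 0.0692) and added FOS as lower (-2.38, edgeR adjusted p = 0.0253). Over all alternatives, the adjusted p ranged from 0.00098 to 0.0692 for MYC and from 0.0253 to 0.273 for FOS. Over all alternatives, the log2 fold change lay between 0.65 and 0.96 for FOSL1, 0.73 and 0.82 for FOSL2, 0.45 and 0.60 for JUN, -0.64 and -0.42 for JUND, and -1.39 and -0.95 for EGR1. With each library left out in turn, the uncalled genes IER2 (-0.025 to 0.088) and FOSB (-0.25 to 0.93) changed sign and FOS ranged from -2.38 to -0.93. At an adjusted p below 0.01, 1097 genes were higher and 1167 lower, against 1723 and 1786 at 0.05, with 1 other immediate early gene lower, 3 MAP kinase genes lower and 3 MYC targets higher. A replicate block on libraries 2 to 4 gave 1275 higher and 1360 lower genes, with the 6 calls kept; it called 1 of the other immediate early genes lower, 3 of the MAP kinase genes higher and 3 of the MYC targets higher. Correlations of the deviations of same-numbered libraries were 0.0086, 0.0189 and -0.0044, so the libraries share a number and nothing shows a pairing. Of 304 list counts under alternatives, 14 moved by more than 1.5 times, and those that moved with 1 library left out stand beside their lists. FOS and FOSB had few counts (33 and 118 over the siGLUT2 libraries, 125 and 112 over the scrambled libraries) and, of the 10 genes, varied most among siGLUT2 libraries (coefficients of variation 89.1% and 77.5%).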
